A study of Mus musculus with 3 samples.

Results

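Chemokine receptors and leukocyte adhesion molecules were described in CD45-positive cells of newborn mouse liver, as every row of the 3 single-cell count matrices whose gene symbol is Cxcr2, Cxcr4, Ccr1, Ccr2, Cx3cr1, Itgam, Itgal, Itga4 or Itgb2. Of these 9 symbols, 8 had a row among the 19059 genes measured. Cx3cr1 was not analysed here. The libraries came from Pex2 homozygous null mutants (Pex2-/-, called KO), from Pex2 heterozygotes (labelled Het) and from Pex2 wild-type animals (labelled WT), all taken on postnatal day 0, with 1 library per genotype. Pex2 encodes a membrane protein that peroxisomes need to take up their enzymes, and its loss is used as a model of Zellweger spectrum disorders. Livers were strained, hepatocytes were spun out, red cells were lysed, and viable cells bearing CD45, the surface protein of leukocytes, were sorted, fixed and measured with gene-specific probe pairs. The labels do not say how many animals were used for a library.

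Chemokine receptors are membrane proteins coupled to G proteins that steer leukocytes along gradients of small secreted proteins, the chemokines. Cxcr4 binds Cxcl12 and holds blood-forming cells and developing neutrophils and B cells in the marrow and in the fetal liver, Cxcr2 binds chemokines such as Cxcl1 and Cxcl2 and draws neutrophils out into the blood, and Ccr2 binds Ccl2 and is needed for monocytes to leave the marrow. Integrins are paired surface proteins that bind cells to vessel walls and matrix: Itgal and Itgam each pair with Itgb2 and bind Icam1 among other ligands, and Itga4 pairs with Itgb1 and binds Vcam1.

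The libraries differed in depth, in Pex2 and in sex-linked transcripts. KO held 8245 barcodes and 186295183 unique molecular identifiers (UMIs, counts of captured molecules), labelled Het 8000 barcodes and 144589956 UMIs, and labelled WT 9600 barcodes and 96629431 UMIs. Levels are in CPM, a gene's UMIs per 1000000 UMIs of the library or gated class, and every interval below covers counting error only. Pex2 itself stood at 0.0107 CPM (2 UMIs) in KO, 53.3 CPM in labelled Het and 23.6 CPM in labelled WT. Pex2 was thus lower in labelled WT than in labelled Het, against what the names give, so those 2 libraries are called by their labels throughout. The Y-linked genes Ddx3y and Eif2s3y had 10 UMIs together in KO, 4 in labelled Het and 13278 in labelled WT, so only labelled WT had a clear level of them. Genotype, depth and library cannot be told apart, and against labelled WT sex cannot be told apart from them either. Full barcodes were never shared between libraries, but 961 to 1184 droplet barcodes of 16 bases recurred in each pair of libraries; leaving those cells out kept every call over all cells and in the neutrophil, monocyte and B-lineage gates. No test is possible with 1 library per genotype, and no p-value is given. A gene is called higher or lower in KO when its CPM lay at least 1.5-fold above both other libraries, or at least 1.5-fold below both, with a mean of at least 10 CPM over the 3.

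Each cell was gated by markers that include none of these genes. The neutrophil gate held 5555 cells in KO, 5252 in labelled Het and 6279 in labelled WT, split into promyelocytes (297, 389 and 381 cells, in that order of libraries), granule-stage neutrophils (4240, 4344 and 5010) and mature neutrophils (1018, 519 and 888). The monocyte gate held 948, 556 and 586 cells (11.9%, 7.12% and 6.28%), and the B-lineage gate 807, 1188 and 1723 cells (10.2%, 15.2% and 18.5%). Of the monocyte markers measured, 8 of 9 stood out in the monocyte gate (all but Cybb), and of the B-lineage markers 10 of 11. Small gates held macrophages (63, 63 and 62 cells), stem and progenitor cells (52, 170 and 123), basophils or mast cells (31, 36 and 41) and erythroid cells (64, 89 and 34), the last added after the data were seen. When the cells were clustered instead, KO and the other 2 libraries mostly lay apart: cluster 6 held 94.4% of the monocyte-gated cells of KO, and clusters 11 and 20 held 43.7% and 41.7% of those of labelled Het and 59.6% and 31.6% of those of labelled WT. Mature neutrophils lay in clusters 12 and 14 in KO (56.9% and 39.8%), in 15 and 27 in labelled Het (69.4% and 28.3%) and in 27 and 15 in labelled WT (51.9% and 32.7%). Granule-stage cells lay mainly in clusters 7, 12 and 0 in KO, in 22 and 25 in labelled Het and in 29, 2 and 25 in labelled WT, while B-lineage cells of all 3 libraries shared clusters 3, 9 and 19. Clusters that hold 1 library's cells may be that library and not a state, and these cannot be told apart.

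Several of the genes had the same leading cell class in all 3 libraries. Cxcr2, Itgam and Itgb2 were highest in mature neutrophils and next highest in granule-stage neutrophils, with intervals that did not overlap between these stages. Ccr2 was highest in monocytes, at 467 CPM in KO, 994 CPM in labelled Het and 911 CPM in labelled WT, and next in basophils or mast cells at 235, 266 and 291 CPM. In B-lineage cells, which should lack it, Ccr2 stood at 1.08, 1.91 and 3.16 CPM. Cxcr2 stood there at 5.59, 3.16 and 11.9 CPM, and values of that size are read as background. Itga4 was lowest in granule-stage neutrophils, at 19 CPM in KO, 24.1 in labelled Het and 27.1 in labelled WT. Cxcr4 had no common order: basophils or mast cells and B-lineage cells led in KO (1594 and 1517 CPM) and in labelled Het (1318 and 947 CPM), and B-lineage cells and mature neutrophils in labelled WT (628 and 560 CPM). Probes differ between genes, so levels are compared only within a gene.

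**Figure D1:**
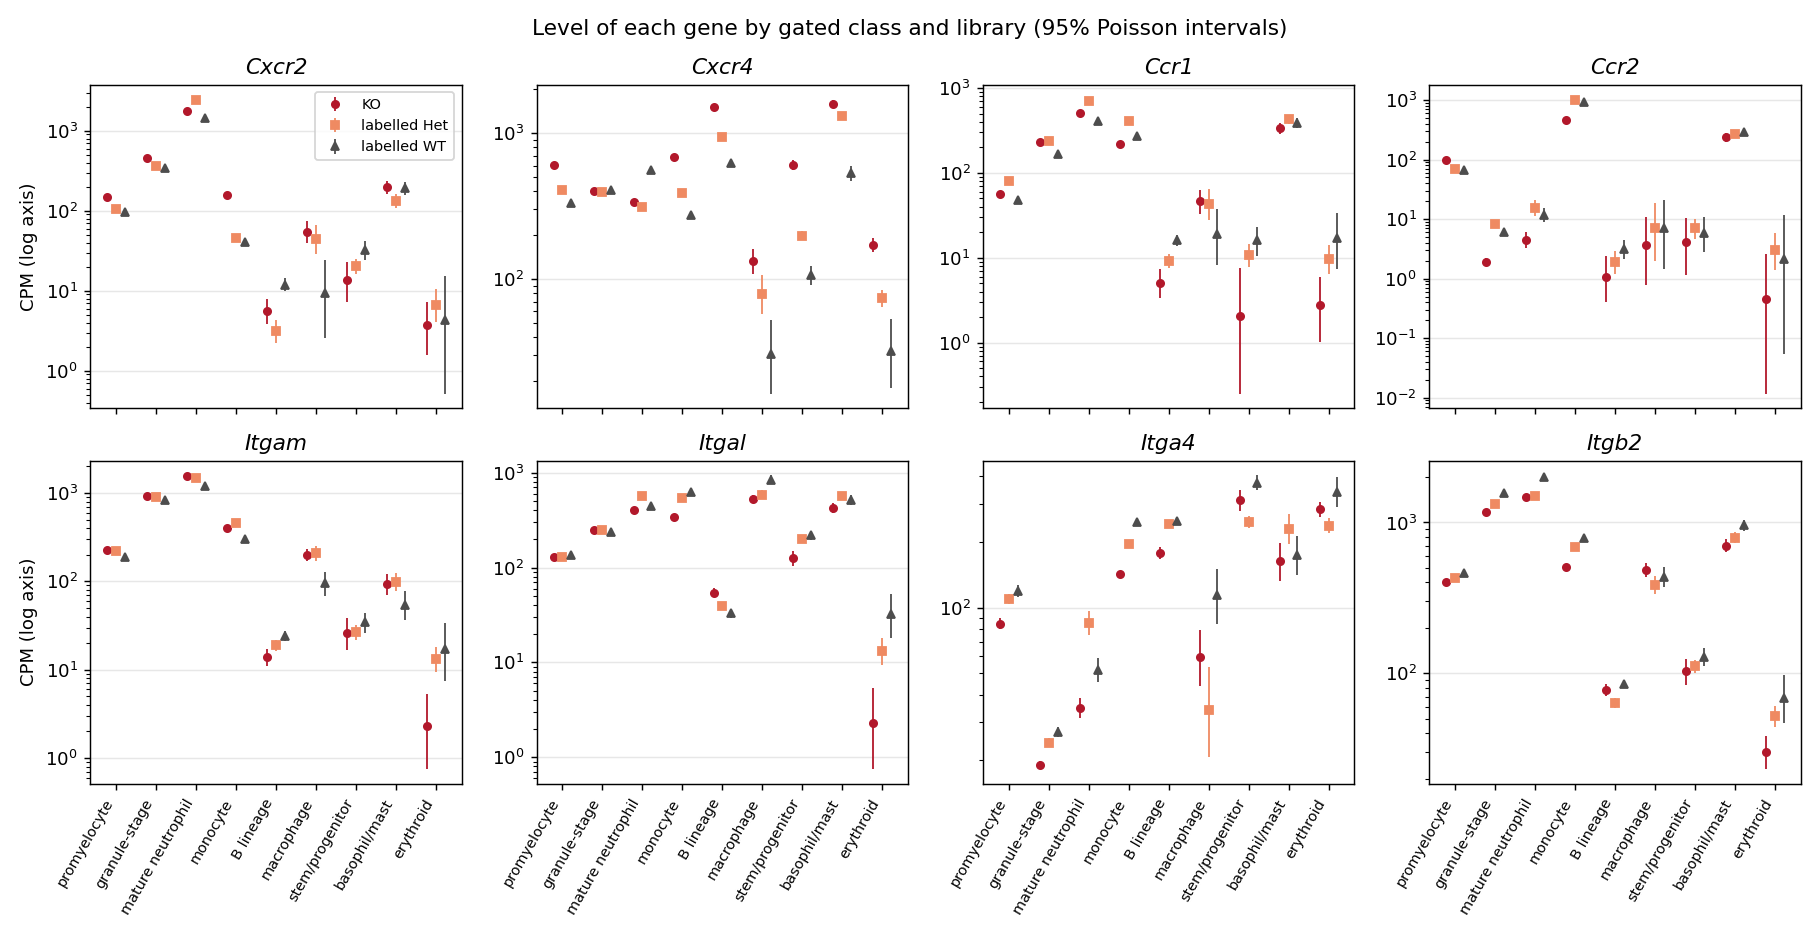
Level of each of the 8 genes in CPM (log axis) in 9 gated classes, with KO left of labelled Het and labelled WT and bars for 95% Poisson intervals. Cxcr2 and Itgam peak in mature neutrophils in every library, Ccr2 in monocytes, and the KO point for Cxcr4 lies above the others in B-lineage, stem and progenitor, erythroid and macrophage gates.

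On GRCm38, Cxcr2 and Cxcr4 lie on chromosome 1 (74153989 to 74161246, plus strand, and 128588199 to 128592293, minus strand), Ccr1 and Ccr2 on chromosome 9 (123962124 to 123968692, minus, and 124101950 to 124113557, plus), Itgal and Itgam on chromosome 7 (127296260 to 127335138 and 128062640 to 128118491, both plus), Itga4 on chromosome 2 (79255426 to 79333123, plus) and Itgb2 on chromosome 10 (77530252 to 77565708, plus). The promoters of Cxcr2, Cxcr4 and Ccr2 are shown because these are the 3 receptors called in monocytes. Each is the 250 bases before the RefSeq gene start on the gene's strand, from RefSeq on GRCm38.p6, whose table matched 7 of the 9 symbols. The Cxcr2 window is chr1:74153744-74153993 on the plus strand, that of Cxcr4 chr1:128592300-128592549 on the minus strand and that of Ccr2 chr9:124101933-124102182 on the plus strand. The gene positions above are from GENCODE, whose gene starts differ from those of RefSeq. Most of the Ccr2 window therefore lies inside the Ccr2 gene as placed above, as do the last bases of the Cxcr2 window inside Cxcr2. Capitals mark matches on either strand to GAGGAA, a core of sites of PU.1 (a factor of the myeloid lineage), or to the C/EBP pattern TTNNGNAA (factors of granulocytes and monocytes).
Cxcr2 promoter: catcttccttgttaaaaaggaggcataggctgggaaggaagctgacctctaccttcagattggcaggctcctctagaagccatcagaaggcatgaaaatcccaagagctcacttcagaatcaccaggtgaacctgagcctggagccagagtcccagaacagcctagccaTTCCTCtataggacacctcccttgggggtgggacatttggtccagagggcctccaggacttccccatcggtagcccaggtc
Cxcr4 promoter: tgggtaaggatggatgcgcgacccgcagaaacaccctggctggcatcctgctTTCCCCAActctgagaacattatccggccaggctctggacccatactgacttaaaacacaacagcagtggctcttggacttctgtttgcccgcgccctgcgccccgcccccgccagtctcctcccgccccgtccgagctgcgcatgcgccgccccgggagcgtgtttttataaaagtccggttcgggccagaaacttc
Ccr2 promoter: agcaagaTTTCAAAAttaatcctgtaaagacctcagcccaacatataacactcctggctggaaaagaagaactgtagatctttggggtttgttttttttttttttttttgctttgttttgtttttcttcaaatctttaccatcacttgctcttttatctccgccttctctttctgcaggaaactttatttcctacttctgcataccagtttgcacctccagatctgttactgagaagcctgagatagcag
Cxcr2 held 1 PU.1 match, Cxcr4 and Ccr2 1 C/EBP match each. Of 32851 mouse promoters of that length, 23.3% held the PU.1 letters and 36.8% the C/EBP letters, so a match is common and describes the sequence only. ACGTG, the core bound by hypoxia-inducible factors, was also searched on both strands; it was in none of the 3 and in 16.6% of all.

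Over all sorted cells, 7 of the 8 genes stayed within the 1.5-fold limits and Itga4 was lower in KO. Itga4, the alpha chain that binds Vcam1, stood at 60.6 CPM in KO, against 93.2 CPM in labelled Het and 105 CPM in labelled WT, which is 1.54-fold and 1.74-fold lower. Of all 8342 genes over the level limit, 13.7% were called lower and 2.73% higher, so 1 lower call among 8 is near the background. Cxcr2 came closest to a higher call, with 422 CPM in KO, 283 in labelled Het and 287 in labelled WT (1.49-fold and 1.47-fold). The median gene had a log2 ratio of -0.16 against labelled Het and -0.14 against labelled WT. With TMM factors, which move that median to 0.18 and 0.14 and the share of higher calls among all calls from 16.7% to 65.7%, Cxcr2 was called higher (1.89-fold and 1.79-fold) and Itga4 was not called. These whole-library levels also follow the mix of cells, since a lower share of cells of a type and less RNA per cell cannot be told apart in them. With the gated classes mixed in the same shares in every library, Cxcr2 stood at 404, 355 and 298 CPM (1.14-fold and 1.35-fold). Neither Cxcr2 nor Itga4 was called then.

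Along the neutrophil stages, Cxcr2 was higher at each later stage and Itga4 lowest at the granule stage in every library, and no gene was called in the neutrophil gate as a whole. There 2.73% of 7408 genes were called higher and 9.07% lower. Cxcr2, the receptor linked to release, stood at 522 CPM in KO, 390 in labelled Het and 392 in labelled WT, 1.34-fold and 1.33-fold higher in KO. Cxcr4, the receptor linked to retention, stood at 416, 394 and 408 CPM in the same libraries, so the neutrophil gates differed by less than 1.1-fold in it. Cxcr2 was called higher under TMM factors (587 CPM in KO, 361 in labelled Het, 376 in labelled WT) and when dividing cells were left out (944, 592 and 569 CPM). With the stages mixed in the same shares in every library it was not called, at 498, 450 and 377 CPM (1.11-fold and 1.32-fold). Cells that were not dividing included 997, 516 and 881 mature cells, beside 1752, 2234 and 3131 granule-stage cells. The part of that makeup in the Cxcr2 call was not tested. TMM factors moved the median gene from -0.09 and -0.05 log2 to 0.19 and 0.18, and the share of higher calls among all calls from 23.1% to 72.6%. Dividing cells made up 49.8% of the gate in KO, 44.8% in labelled Het and 33.6% in labelled WT.

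Cxcr2 was higher at each later step in each library. In dividing promyelocytes it stood at 147 CPM in KO, 116 in labelled Het and 89.3 in labelled WT, and in dividing granule-stage cells at 351, 276 and 218 CPM. In granule-stage cells that had stopped dividing it stood at 742 CPM in KO, 508 in labelled Het and 471 in labelled WT. KO was the highest library at these 3 steps. Of all granule-stage cells, 16.7% in KO, 6.7% in labelled Het and 10.6% in labelled WT lay near the border of the stage. Cluster 12 held 27.8% of the granule-stage cells of KO and 56.9% of its mature cells. Over the granule stage Cxcr2 stood at 463, 366 and 344 CPM. A stricter gate gave 369, 325 and 285 CPM (1.14-fold and 1.3-fold), and clusters gave 533, 339 and 345 CPM (1.57-fold and 1.54-fold). In mature neutrophils the order changed, with 1757 CPM in KO, 2393 in labelled Het and 1449 in labelled WT, so KO lay between the other 2. The mature marker Il1b was among the leading genes of clusters 14 and 15. Cluster 14 held 39.8% of the mature cells of KO, and cluster 15 held 69.4% of those of labelled Het and 32.7% of those of labelled WT. The part of this makeup in the Cxcr2 order was not tested. At 3000 UMIs per cell, 97.7%, 98.8% and 95.8% of mature neutrophils had a Cxcr2 UMI, so at that stage the libraries differed in level and hardly in the share of cells; 99 of 1018, 104 of 519 and 128 of 888 cells were too shallow to enter.

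Cxcr4 differed between libraries at both ends of the stages. Promyelocytes had 606 CPM in KO, 408 in labelled Het and 330 in labelled WT, 1.49-fold and 1.84-fold higher in KO and just short of a call, where 5.83% of 8531 genes were called higher and 10.7% lower. TMM factors made it a call, and moved the share of higher calls among all calls at that stage from 35.3% to 48.9%, whereas promyelocytes taken by cluster gave 408 CPM in KO, 356 in labelled Het and 314 in labelled WT (1.15-fold and 1.3-fold). Of the gated promyelocytes of KO, 33.7% lay in cluster 6, which held most KO monocytes, while 16.5% of those of labelled Het and 17.1% of those of labelled WT lay in the monocyte cluster 11. Monocyte markers summed to 3237, 1905 and 2136 CPM in the promyelocyte gate, and their part in its Cxcr4 was not tested. Granule-stage cells had 399, 394 and 407 CPM. Mature neutrophils had 338 CPM in KO, 313 in labelled Het and 560 in labelled WT. In the gates Cxcr4 was thus lower at the mature than at the promyelocyte stage in KO and in labelled Het and higher in labelled WT. By cluster the mature cells had 352, 356 and 551 CPM, so labelled Het was level between these stages and the KO gap was smaller. The ratio of Cxcr2 to Cxcr4 UMIs, 2 receptors with opposed roles in neutrophil release, was 0.24 in dividing promyelocytes of KO, 0.29 in labelled Het and 0.266 in labelled WT. In granule-stage cells that were not dividing it was 2.13, 1.39 and 1.12, and in mature cells that were not dividing 5.36, 7.65 and 2.6. The ratio rests on different probes, so its height has no meaning of its own and only its order between stages and libraries is read.

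**Figure D2:**
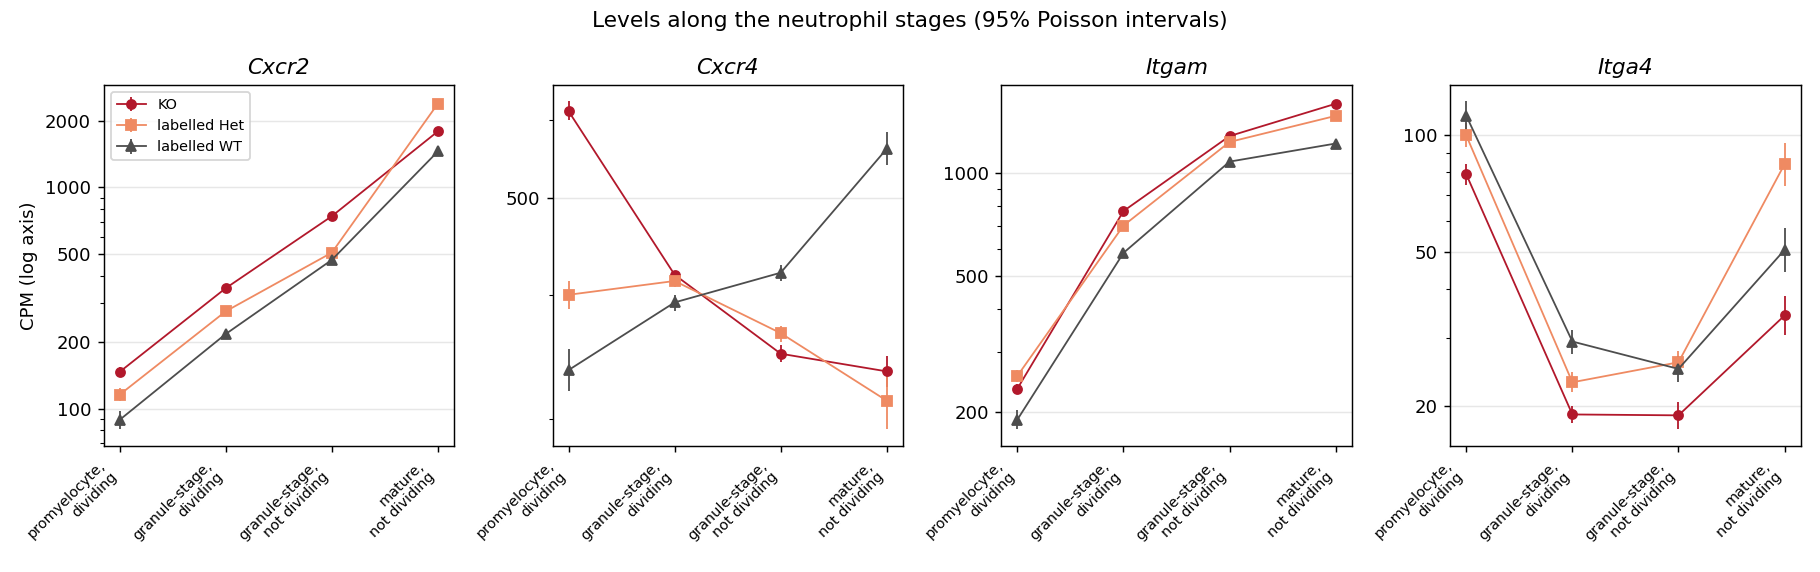
Cxcr2, Cxcr4, Itgam and Itga4 in CPM (log axes) at 4 steps of neutrophil maturation in each library, with bars for 95% Poisson intervals. Cxcr2 and Itgam are higher at each later step in all libraries, Cxcr4 ends low in KO and labelled Het (335 and 313 CPM) and high in labelled WT (561 CPM), and Itga4 is lowest at the granule stage.

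Among the integrins of neutrophils, Itgam, the alpha chain of the complement receptor of myeloid cells, differed little. It stood at 893 CPM in KO, 828 in labelled Het and 777 in labelled WT over the gate, and in mature cells at 1562, 1469 and 1216 CPM. Its partner Itgb2, the beta chain shared with Itgal, ran the other way, with 1115 CPM in KO, 1201 in labelled Het and 1462 in labelled WT. Itgb2 was lowest in KO at all 3 stages, by at most 1.37-fold. Itgal, the alpha chain of the main leukocyte integrin, was level at 246, 240 and 238 CPM.

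Itga4 stood at 27 CPM in KO neutrophils, 38 in labelled Het and 40.5 in labelled WT, and was lowest in KO at each stage. In mature cells it stood at 34.8, 85 and 51.9 CPM. That order depends on the gate, because mature cells taken by cluster gave 83.6 CPM in KO, 42.7 in labelled Het and 41.9 in labelled WT. The same change of definition gave Cxcr2 3179, 1451 and 1451 CPM and Ccr1 845, 500 and 416 CPM. By cluster, all cells of a cluster take the same stage. By gate, cluster 12 held 1178 granule-stage and 579 mature cells of KO, and cluster 27 held 434 and 147 of labelled Het. The cells counted as mature thus change with the definition. Mature calls are thus not stable to how the stage is drawn, and 36.9%, 22.2% and 35.7% of the mature cells lay near the border of the stage.

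Ccr1, a receptor for inflammatory CC chemokines, was higher in neutrophils of KO and labelled Het (232 and 229 CPM) than of labelled WT (170 CPM). Ccr2 in mature neutrophils was the only stage-level call, lower at 4.53 CPM in KO, against 15.3 in labelled Het and 11.9 in labelled WT, where 5.9% of 5879 genes were called lower and 11.5% higher (66% of all calls, 51.8% with TMM factors). At 3000 UMIs per cell only 0.762%, 0.482% and 1.45% of those cells had a Ccr2 UMI, near the B-lineage shares of 0.404%, 0.611% and 1.06%, so the call is at background level. It also turned direction with the definition of the stage: by cluster Ccr2 stood at 3.06 CPM in KO, 0.987 in labelled Het and 2.82 in labelled WT. In granule-stage neutrophils 2.76% of 6948 genes were called higher and 6.28% lower, and none of the 7 genes that passed the level limit was among them. Higher calls were 30.6% of all calls there, and 69.2% with TMM factors.

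Among the neutrophil, monocyte and B-lineage gates, monocyte-gated cells held the most calls: Cxcr2 and Cxcr4 were higher in KO, and Ccr2 and Itgal lower. These 4 of 8 genes compare with 5.61% of 8515 genes called higher and 10.9% called lower, a split of 34% higher calls that TMM factors moved to 51.2%. Cxcr2 stood at 158 CPM in KO, 45.3 in labelled Het and 40.3 in labelled WT, 3.49-fold higher (95% interval 3.18 to 3.84) and 3.92-fold higher (3.5 to 4.41). Cxcr4 stood at 688 CPM in KO, 389 in labelled Het and 277 in labelled WT, 1.77-fold (1.71 to 1.83) and 2.48-fold (2.38 to 2.6) higher. For both receptors the KO library stood apart from the other 2, which lay close together for Cxcr2 (1.12-fold) and less so for Cxcr4 (1.41-fold).

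Ccr2, the exit receptor of monocytes, stood at 467 CPM in KO, 994 in labelled Het and 911 in labelled WT, 2.13-fold and 1.95-fold lower in KO. Itgal stood at 345, 545 and 624 CPM, 1.58-fold and 1.81-fold lower in KO, and was no longer called with TMM or median-of-ratios factors (ratios to labelled Het of 0.683 and 0.671). Among the other integrins, none was called: Itgb2 stood at 506 CPM in KO, 684 in labelled Het and 787 in labelled WT, and Itga4 at 143, 196 and 247 CPM. Ccr1 was 1.85-fold below labelled Het and 1.25-fold below labelled WT (220, 408 and 275 CPM). Itgam lay between the other libraries, with 397 CPM in KO, 456 in labelled Het and 301 in labelled WT.

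**Figure D3:**
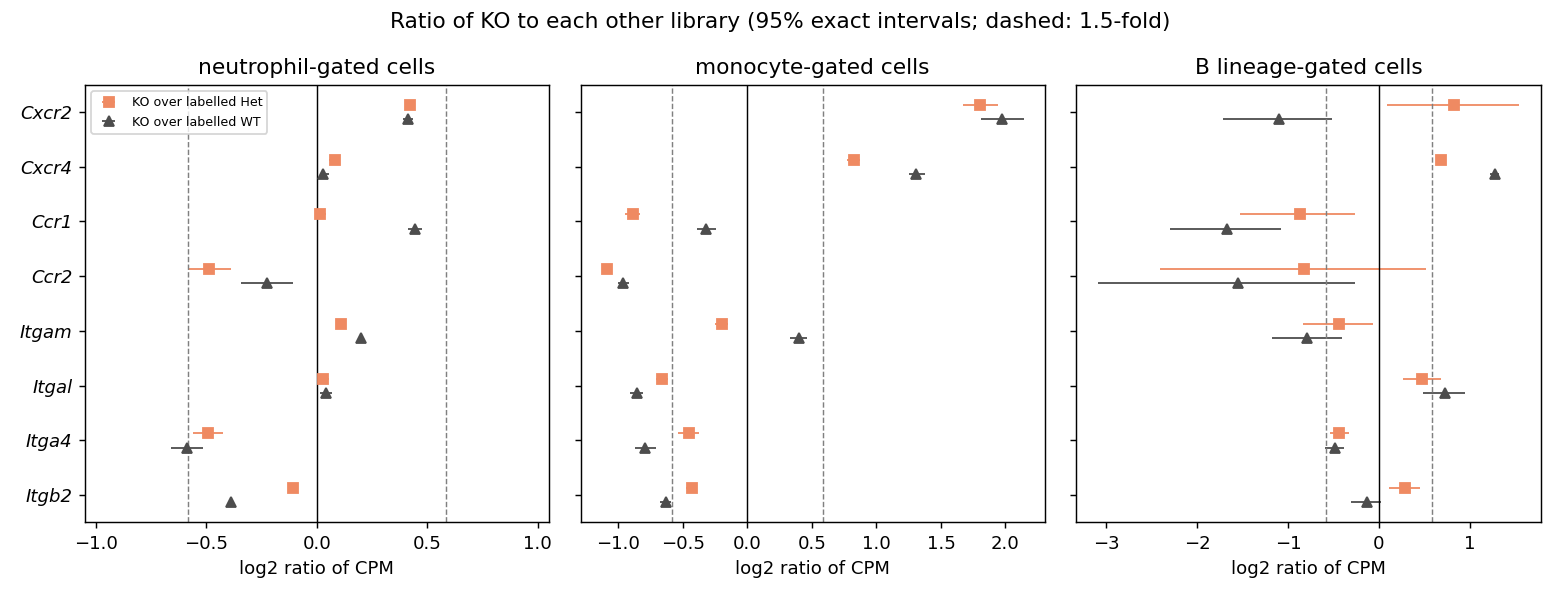
Log2 ratio of KO to labelled Het (squares) and to labelled WT (triangles) for the 8 genes in neutrophil, monocyte and B-lineage gates, with 95% exact intervals and dashed lines at 1.5-fold; the horizontal scales differ between panels. In monocytes Cxcr2 and Cxcr4 lie right of the dashed line and Ccr2 and Itgal left of it for both ratios, and in the neutrophil gate no gene lies outside for both.

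The shares of monocyte-gated cells with a UMI, after thinning every cell to 3000 UMIs, had the same order as the levels. A Cxcr2 UMI was found in 32.7% of cells in KO, 12.8% in labelled Het and 12.1% in labelled WT, against 1.88%, 1.13% and 4.17% of B-lineage cells, which should lack it. The median monocyte held 21676, 18705.5 and 12161.5 UMIs before thinning and the median B-lineage cell 5796, 7242.5 and 4014, and without thinning the Cxcr2 shares of monocytes were 64.7%, 33.5% and 29.7%. A Cxcr4 UMI was found in 76.8%, 48% and 43.6% of thinned monocytes, a Ccr2 UMI in 68.9%, 86.8% and 86.2%, and an Itgal UMI in 63.6%, 76.6% and 81%. Ccr2 was found in 67.1% of the Cxcr2-positive and 69.7% of the Cxcr2-negative monocytes of KO, in 91.4% and 86.1% of those of labelled Het and in 88.6% and 85.9% of those of labelled WT. In KO the lower Ccr2 share was thus seen in monocytes with and without Cxcr2.

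Dividing and non-dividing monocytes gave the same directions, with wider gaps in cells that were not dividing. In those, Cxcr2 stood at 311 CPM in KO, 63.7 in labelled Het and 58.7 in labelled WT, and Cxcr4 at 429, 153 and 113 CPM. Ccr2 stood at 510, 1376 and 1279 CPM and Itgal at 446, 770 and 1030 CPM. In dividing monocytes the values were 86.3, 35.2 and 33.3 CPM for Cxcr2 and 809, 519 and 339 CPM for Cxcr4. Ccr2 stood there at 447, 785 and 770 CPM, and Itgal at 297, 422 and 469 CPM. In labelled Het and labelled WT, Ccr2 was higher and Cxcr4 lower in cells that were not dividing than in dividing cells; in KO the Cxcr4 gap was smaller, and Ccr2 was nearly level between them (510 against 447 CPM).

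**Figure D4:**
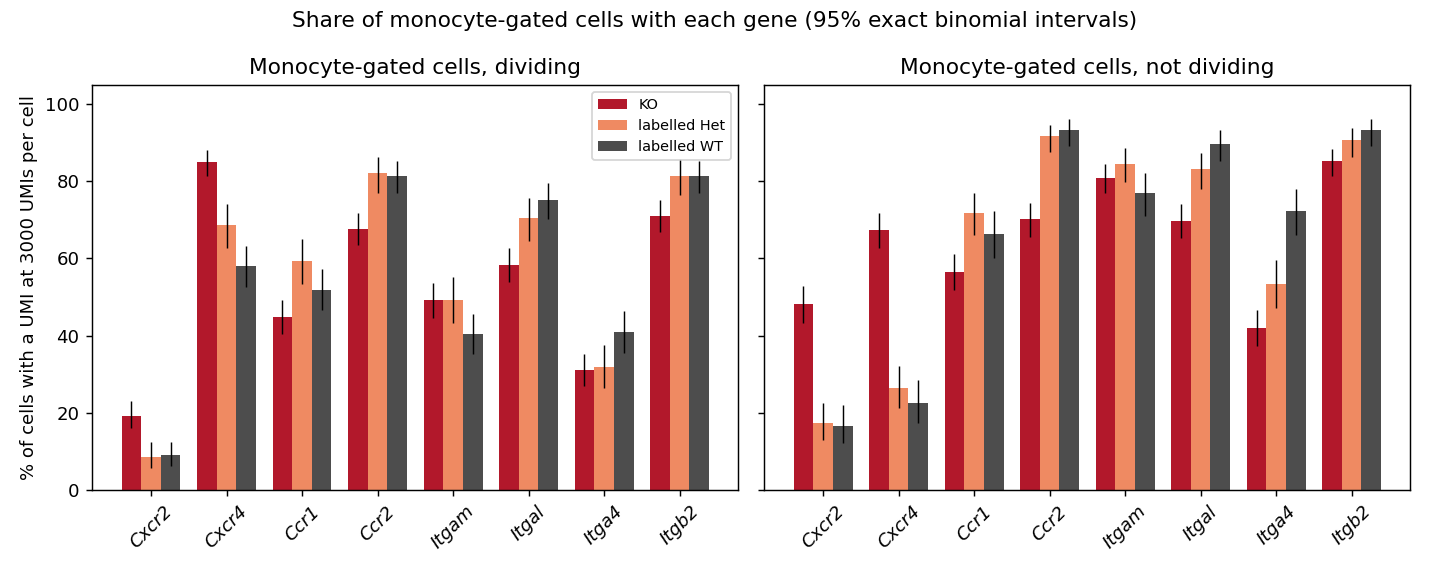
Percentage of monocyte-gated cells with a UMI of each gene at 3000 UMIs per cell, for dividing cells (left) and cells not dividing (right), with 95% exact binomial intervals. Among cells not dividing, 67.4% had Cxcr4 in KO, against 26.3% in labelled Het and 22.6% in labelled WT, and 70.2% had Ccr2, against 91.7% and 93.2%.

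Neutrophil markers also differed between the monocyte gates. The 6 granule-stage markers summed to 3542 CPM in the monocyte gate of KO, 1984 in labelled Het and 2418 in labelled WT, and the 6 mature markers to 4181, 2255 and 1985 CPM, with no marker at 0. Single markers did not move together. Lcn2, a granule protein that binds iron carriers, stood at 2992, 639 and 276 CPM, and Mmp8, the neutrophil collagenase, at 2289, 524 and 276 CPM. Camp, a granule antimicrobial peptide, stood at 76.5 CPM in KO, 158 in labelled Het and 398 in labelled WT. Retnlg, a secreted protein of mature neutrophils, stood at 29.6, 61.5 and 116 CPM, so markers of both lists ran in both directions. In the 195, 132 and 67 monocytes with a granule score under 0.1, an alternative chosen after the data were seen, Cxcr2 stood at 41.3 CPM in KO, 25.4 in labelled Het and 18.1 in labelled WT (1.62-fold and 2.28-fold). Cxcr4 stood there at 697, 325 and 140 CPM and Ccr2 at 600, 1193 and 1172 CPM, and 7 of the 8 genes passed the fold, where 7.81% of 8697 genes were called higher and 7.61% lower. Lcn2 is among the markers of that score. In this subset 51.8% of cells were dividing in KO, 34.1% in labelled Het and 26.9% in labelled WT. The whole monocyte gate had 52.8%, 51.4% and 59%. The part of this imbalance in the subset's values was not tested. The promyelocyte markers summed to 1876, 2323 and 2802 CPM and those of conventional dendritic cells to 162, 663 and 308 CPM in the whole gate, of which Cd74 alone made 82.3, 405 and 170 CPM. The part of neutrophil transcripts in the full gate's Cxcr2 was not tested beyond these values.

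B-lineage cells were set apart by Cxcr4, the receptor that holds B-cell precursors near Cxcl12. It stood at 1517 CPM in KO, 947 in labelled Het and 628 in labelled WT, 1.6-fold (1.56 to 1.65) and 2.42-fold (2.34 to 2.5) higher in KO. In this gate 9.56% of 8636 genes were called higher and 13.1% lower, and of the 6 genes over the level limit Cxcr4 was called higher and Ccr1 lower. Ccr1, at 5.05, 9.23 and 16 CPM with a UMI in 1.48%, 2.44% and 4.25% of thinned cells, lay at background level. Labelled Het itself lay 1.51-fold above labelled WT in Cxcr4, and the order of the 3 libraries is that of their depth over all cells, though not of the gate's median UMIs. After thinning to 3000 UMIs, 92.9%, 85.1% and 76.2% of B-lineage cells had a Cxcr4 UMI. Thinning left out 64 of 807 cells in KO, 42 of 1188 in labelled Het and 500 of 1723 in labelled WT as too shallow, so the shares cover unequal parts of the gates.

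The B-lineage gate differed in makeup, and Cxcr4 was highest in KO within each of its parts. The gate was split by unthinned UMIs of surrogate light chain genes (Igll1 and Vpreb1, found in early precursors) and of Ms4a1. Cells with more surrogate light chain UMIs made up 122 of 807 cells in KO, 500 of 1188 in labelled Het and 660 of 1723 in labelled WT. They had 1352, 786 and 476 CPM of Cxcr4. Cells with equal counts, which include cells with none of either, had 1912, 1405 and 943 CPM. Of this middle group, 43 of 441, 23 of 503 and 346 of 858 cells had under 3000 UMIs. Cells with more Ms4a1 UMIs, from the CD20 gene of later B cells, had 1044, 487 and 299 CPM. In all libraries Cxcr4 was thus highest in the middle group and lowest in the Ms4a1 group. Fewer B-lineage cells were dividing in KO, at 17.3%, against 47.6% in labelled Het and 43.3% in labelled WT. Among cells that were not dividing, Cxcr4 stood at 1596, 1064 and 731 CPM, 1.5-fold by rounding but just under the limit against labelled Het, and therefore not called.

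Itga4, which with Itgb1 ties B-cell precursors to stroma, was not called in B-lineage cells, with 178 CPM in KO, 241 in labelled Het and 249 in labelled WT. Within the parts it stood at 221, 267 and 293 CPM in surrogate light chain cells, at 166, 196 and 183 CPM in the middle group and at 158, 218 and 235 CPM in Ms4a1 cells. KO was thus the lowest library each time. Itgal stood at 54.4 CPM in KO, 39.2 in labelled Het and 33 in labelled WT over the gate, and was highest in Ms4a1 cells at 120, 102 and 88.6 CPM. Itgb2 was at 77.3, 63.6 and 84.9 CPM.

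Cxcr4 was also higher in KO in 3 of the small gates. In stem and progenitor cells it stood at 607 CPM in KO, 198 in labelled Het and 106 in labelled WT, 3.06-fold and 5.72-fold higher, where 9.68% of 9449 genes were called higher and 11.8% lower. Cluster 5, with the erythroid marker Ermap among its leading genes, held 46.2%, 30.6% and 20.3% of these cells. Dividing cells made up 19.2%, 38.2% and 42.3% of them. Over 8 settings the KO to labelled Het ratio ran from 2.64 to 3.3. The part of this makeup in the gate's Cxcr4 was not tested. In erythroid cells Cxcr4 stood at 171, 74.2 and 32.1 CPM, where 7.66% of 8389 genes were called higher and 8.3% lower. In macrophages it stood at 133, 79.1 and 30.8 CPM, where 13.8% of 8473 genes were called higher and 10.1% lower. Of the macrophages, 41.3% lay near the border of the gate in KO, 11.1% in labelled Het and 8.06% in labelled WT. Over 8 settings the KO to labelled Het ratio of Cxcr4 in macrophages ran from 1.26 to 1.69, and it was not called after thinning. Basophils or mast cells had 1594 CPM in KO, 1318 in labelled Het and 532 in labelled WT and gave no call among the 8 genes, where 11.3% of 8640 genes were called higher and 10.9% lower.

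In each of these gates Cxcr4 had the library order KO, labelled Het, labelled WT, which it did not have in granule-stage or mature neutrophils. Itgal was lower in stem and progenitor cells of KO, at 125, 199 and 218 CPM. Itgam, Itgal and Itgb2 were lower in erythroid cells of KO: Itgam stood at 2.3, 13.1 and 17.1 CPM, Itgal at 2.3, 13.1 and 32.1 CPM and Itgb2 at 30, 51.7 and 68.5 CPM. For Itgam and Itgal these differences were wider than that of Cxcr4 there, but their KO values of 2.3 CPM were of the size read as background in B-lineage cells. Itgam and Itgb2 were not called when cells with a shared droplet barcode were left out, and Itgal was not called with a stricter gate. The granule-stage markers, which erythroid cells do not make, stood there at 358, 1172 and 1631 CPM in the same order. Cluster 18, the macrophage cluster, held 26.6% of the erythroid cells of KO, 25.8% of those of labelled Het and 55.9% of those of labelled WT. The part of neutrophil or macrophage transcripts in the erythroid integrin values was not tested.

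**Figure D5:**
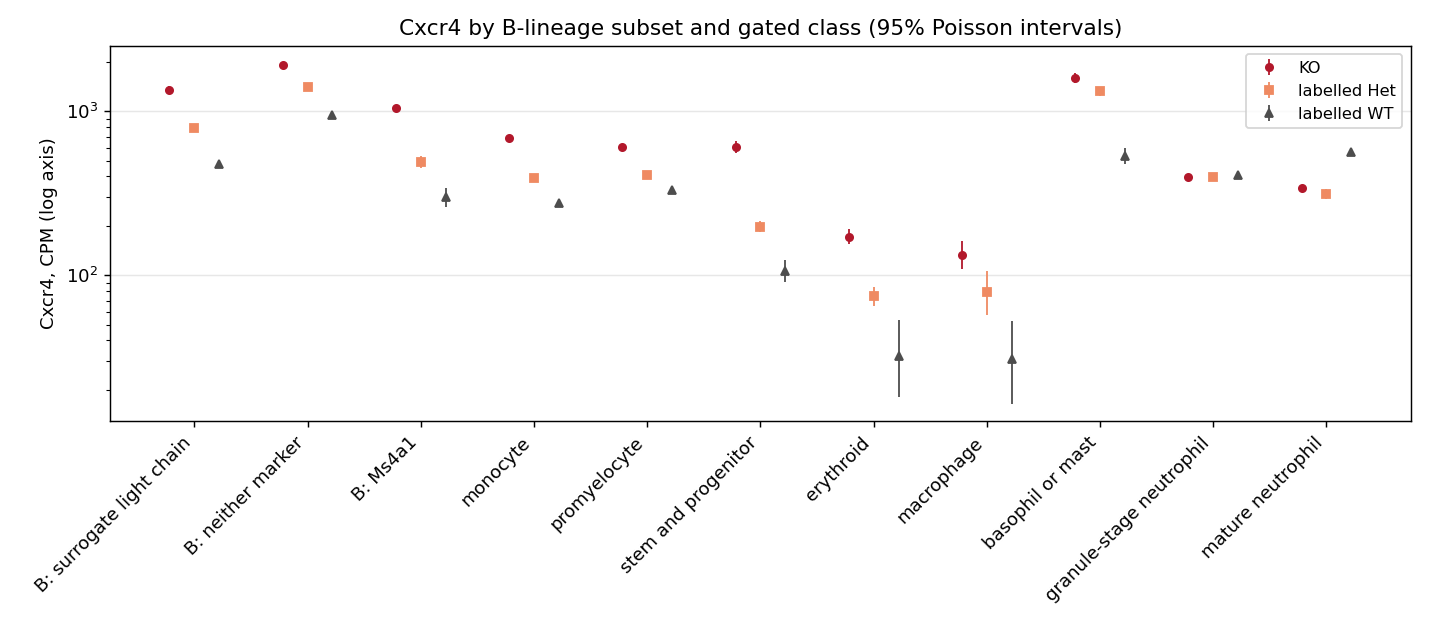
Cxcr4 in CPM (log axis) in 3 parts of the B-lineage gate and in 8 other gated classes, with KO left of labelled Het and labelled WT and bars for 95% Poisson intervals. KO is highest in every class shown except granule-stage neutrophils (399, 394 and 407 CPM) and mature neutrophils (338, 313 and 560 CPM).

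Other receptors, ligands and adhesion genes were taken as lists around the 8 genes. In monocytes, 4 of 9 other chemoattractant receptors over the level limit were lower in KO and none was higher, beside 10.9% and 5.61% of all genes in the gate. The list median was -0.59 log2 against labelled Het and -0.82 against labelled WT, beside -0.05 and -0.09 over all genes. Among them were the complement receptor C5ar1 (129 CPM in KO, 300 in labelled Het and 244 in labelled WT), the chemerin receptor Cmklr1 (18.8, 55.5 and 37 CPM) and Ccrl2, an atypical receptor (8.57, 12.9 and 15.1 CPM). Of 4 chemokine ligands, Ccl2, the ligand of Ccr2, was lower at 0.583 CPM in KO, against 31.6 in labelled Het and 11.3 in labelled WT. Ligand and receptor were thus both lower in KO monocytes, with the ligand at low levels in every library and as the only call among the 4 ligands.

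Of 15 selectin and adhesion genes in monocytes, 6 were lower in KO and 1 was higher, beside 10.9% and 5.61% of all genes in the gate, with medians of -0.44 and -0.12. Icam1, a ligand of Itgal and Itgam, stood at 18 CPM in KO, 46.4 in labelled Het and 61.3 in labelled WT. Fut7, the enzyme that makes selectin ligands, stood at 15.4, 35.6 and 69.1 CPM, and Pecam1, a junction protein used in crossing vessel walls, at 4.13, 18.8 and 14.1 CPM. Jaml, a junction adhesion protein of leukocytes, was the higher one at 290, 146 and 99.7 CPM. The counts of the next 3 lists were near the gate's shares or below them. Of 17 genes of integrin activation, Fgr, a kinase downstream of integrins, was lower at 121, 263 and 293 CPM, Rasgrp4, an activator of Ras, was lower too at 41.5, 90 and 112 CPM, and Arhgap15, a regulator of Rac, was higher at 132, 80.6 and 69 CPM. Of 8 other integrin subunits, Itga5, a fibronectin receptor chain, was lower at 45.8, 117 and 95.5 CPM. Of 22 genes of receptor signalling, only Rgs3 was lower, at 48.5, 82.6 and 103 CPM, and none was higher.

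In B-lineage cells each list held few genes, beside a gate where 9.56% of genes were called higher and 13.1% lower. Higher in KO were 2 of 14 integrin activation genes, 2 of 19 signalling genes and 1 of 6 integrin subunits, with none lower. Of 11 selectin and adhesion genes, 2 were higher and 2 lower. Of 6 genes listed for neutrophil release, 2 were higher and 2 lower. S1pr1, the receptor that guides lymphocytes out of tissues, was higher at 151 CPM in KO, 77.3 in labelled Het and 77.1 in labelled WT, and with Fpr2, a formyl peptide receptor of neutrophils, at 18.2, 8.32 and 10.9 CPM, was 1 of 2 higher among 5 receptors. Fpr2 stood at the level read as background for Cxcr2 and Ccr1 in this gate. Spn, the CD43 gene of early B cells, was lower at 58.2 CPM in KO, 171 in labelled Het and 230 in labelled WT. Dock2, an activator of Rac downstream of chemokine receptors, stood at 436, 208 and 185 CPM, and Rgs2, which dampens G proteins, at 266, 125 and 127 CPM, 2 higher of 19 signalling genes. None of the 19 was lower, and the signalling list's medians were 0.26 and 0.21, beside 0.00 over all genes. All of these are values of the whole B-lineage gate, whose shares of early and of dividing cells differed between libraries. The part of that makeup in the list values was not tested.

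In neutrophils, the list on release had 5 of 9 genes lower in KO and none higher, beside 9.07% and 2.73% of all genes in the gate, with medians of -0.66 and -0.80, beside -0.09 and -0.05 over all genes. The lower genes were Cd74 and Mif, a surface receptor and its ligand, Elane and Ctsg, proteases of promyelocyte granules, and Cebpb, a transcription factor of granulocytes. TMM factors cut the lower calls among all genes of this gate from 672 to 299, and this list's count under them is not given here. Elane stood at 833 CPM in KO, 2206 in labelled Het and 1912 in labelled WT, and the promyelocyte markers, of which Elane and Ctsg are 2, summed to 4830, 9649 and 9227 CPM in the same gate. The chemoattractant receptor Fpr2 was higher, at 1286 CPM in KO, 747 in labelled Het and 639 in labelled WT. Of 17 integrin activation genes and 21 receptor signalling genes tested in neutrophils, none was called in either direction.

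The genes whose log2(CPM + 1) ran most like a receptor over the 27 points of 9 gates and 3 libraries were listed among 9326 genes, as a description. For Cxcr2 they were Anxa11, an annexin (Pearson r 0.938), Ccpg1, a receptor for turnover of the endoplasmic reticulum (0.932) and Pglyrp1, a granule protein that binds bacterial walls (0.924). For Cxcr4 they were Arhgap15 (0.895), Ppp2r5a, a subunit of protein phosphatase 2A (0.892), and Casz1, a zinc finger factor (0.878). For Ccr2 they were Itga1, a collagen receptor chain (0.939), Adgrg5, an adhesion receptor (0.922), and F10, coagulation factor X (0.907). The points share libraries and gates and are not independent.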

How the data were processed

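Single-cell gene expression was measured in CD45-positive cells of newborn mouse liver, in 1 library per genotype. The deposited UMI counts per gene and cell were made with Cell Ranger 7.0.0 on mm10, per the submitters' processing notes. Doublets were removed with Scrublet in scanpy 1.11.5 (298 in KO, 186 in labelled Het, 273 in labelled WT). Each cell took the lineage with the highest mean marker score, with a lead of at least 0.1; the genes described were never markers, and 338, 313 and 346 cells stayed ungated. Counts were summed per gate and library and given as CPM, with exact 95% Poisson, binomial or conditional binomial intervals, which cover counting error only. Dividing cells had at least 5 marker UMIs per 10000. Shares of cells were taken at 3000 UMIs per cell, leaving out 323, 290 and 766 shallower cells. Clusters (30) came from Leiden with igraph 0.11.9 on 2000 genes and 40 components. Scaling factors came from edgeR 4.0.16 and DESeq2 1.42.0 and were used for scaling alone. The calculations were tested on simulated data. Named were all the genes described and, from each surrounding list, at most the 4 called genes with the largest differences per gate, plus the 3 genes most alike to each of 3 receptors; Cebpb in neutrophils was named beyond that rule, after its values were seen. The genes and lists were chosen with earlier results of these data known. Some genes of the lists are not reported here.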

Additional observations from a re-analysis of the deposited data

How the results depend on the processing

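With 1 library per genotype no replicate could be left out. No paired analysis was possible because each group has 1 library. Settings for the stages and small gates, shared droplet barcodes and granule scores were mostly chosen after the data were seen. Over all sorted cells the main count of 1 became 0 with a 2-fold limit and 0 after thinning; TMM and median-of-ratios factors and leaving out dividing cells gave Cxcr2 in place of Itga4, and equal composition gave Ccr2. In neutrophils the count of 0 became 1, Cxcr2, with TMM factors, with median-of-ratios factors and without dividing cells. In monocytes the count of 4 became 1 with a 2-fold limit and 7 in cells with a granule score under 0.1. In B-lineage cells the count of 2 became 0 with a 2-fold limit and 1 without dividing cells, and Itgam replaced Ccr1 with a stricter gate, after thinning and without dividing cells. By stage the count of 1 became 4 with TMM factors, median-of-ratios factors or clusters, 2 with a 1 CPM limit, no level limit, doublets kept, thinning, equal composition or shared droplets left out, and 0 without dividing cells. In the small gates 7 became 4 with a 2-fold limit and 11 with a 1 CPM limit or none. In the lists 44 became 20 with a 2-fold limit and 110 without a level limit. The cause of these shifts was not tested. Over 10 settings in monocytes the KO to labelled Het ratio ran from 1.62 to 4.88 for Cxcr2, from 1.61 to 2.81 for Cxcr4 and from 0.371 to 0.524 for Ccr2; in B-lineage cells it ran from 1.5 to 1.67 for Cxcr4. Of 1552 single values over all gates, 1005 stayed within the counting interval, 544 moved beyond it and 3 called values changed direction, all for Ccr2 in mature neutrophils: its log2 ratio to labelled Het was 3.18 with a stricter gate (0 UMIs in labelled Het, so the value rests on the 0.5 counts added) and 1.66 with clusters, and its log2 ratio to labelled WT 0.18 with clusters.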
